A study of Homo sapiens with 4 samples.

Results

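The genes described here encode 34 carriers of amino acids and small peptides, out of 18417 genes that the arrays measured with a probe set of their own. They were chosen by name, as solute carriers of families SLC1, SLC3, SLC6, SLC7, SLC15, SLC16, SLC36, SLC38 and SLC43, and each gene is represented by the probe set that averaged highest across the 4 arrays. Only SLC1A5 had more than 1 probe set. RNA came from Caco-2, an established human colorectal adenocarcinoma line whose confluent cells take on features of absorptive enterocytes. The arrays covered cholate on a collagen-coated Transwell insert, vehicle on such an insert, cholate on a regular 6-well plate and vehicle on a regular plate. Cholate was given at 2 mM for 3 h as the sodium salt, on the apical side where cells grew on the porous insert. Each array held a pool of RNA from 3 samples and each condition had 1 array, so no value below has a replicate check.

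The sources limit these groups in a few ways. All 4 labels state 21 days of differentiation. The growth protocol instead has plate cultures used on day 14 and inserts between day 14 and day 21, so the support, its coating and the age of the culture cannot be told apart. The cholate was dissolved in a calcium-free salt solution, and the sources used here do not say whether vehicle cells received that solution. All 9 enterocyte and intestinal epithelial markers measured (VIL1, CDX2, CDH1, EPCAM, KRT20, ALPI, SI, DPP4 and ANPEP) lay between 5.59 and 12.82 log2 intensity on every array, above the floor of 4.84 that separates low values. Of 5 leukocyte markers measured, PTPRC, CD3E and ITGAM had a mean under that floor, and CD68 (8.71 to 9.45) and CD14 (8.39 to 8.79) lay above it on every array. Of 6 fibroblast markers, DCN and LUM lay under the floor, COL1A1 read 7.57 to 8.15, and COL1A2, COL3A1 and PDGFRB read 5.06 to 5.58. Array medians ran between 5.64 and 5.73.

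Absorptive cells take up dietary protein as free amino acids and as di- and tripeptides through carriers in the apical brush border, many driven by sodium or protons, and pass amino acids to the blood through exchangers and uniporters in the basolateral membrane. Several carriers are heteromers, in which a glycosylated heavy chain (rBAT, encoded by SLC3A1, or 4F2hc, encoded by SLC3A2) brings a light chain of the SLC7 family to the surface. The heteromer of rBAT with b0,+AT (SLC7A9) takes up cystine and cationic amino acids apically, and loss of either gene causes cystinuria. Here 10 genes were grouped as apical, 8 as basolateral and 4 as intracellular from their textbook location in enterocytes or kidney epithelium. The other 12, carriers better known from liver, brain or growing cells, were left without a side.

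Of the 34 genes, 31 had a mean above the floor, and all 31 were above it on each of the 4 arrays. The exceptions were SLC6A14, the apical carrier of neutral and cationic amino acids, at 2.74 to 2.95 log2 intensity, the glial glutamate carrier SLC1A2 at 3.83 to 4.13 and the glutamine carrier SLC38A5 at 3.45 to 3.71. These 3 are near background and no difference is read from them. Among the 31, a difference of at least 1.5-fold (0.58 log2) in any of the 4 pairs of arrays was seen for 10 genes, and 21 stayed under it in all 4. Over all 12900 genes above the floor, 11.8% had such a difference. The level of one gene is not set against that of another below, because probe sets differ in brightness.

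**Figure D1:**
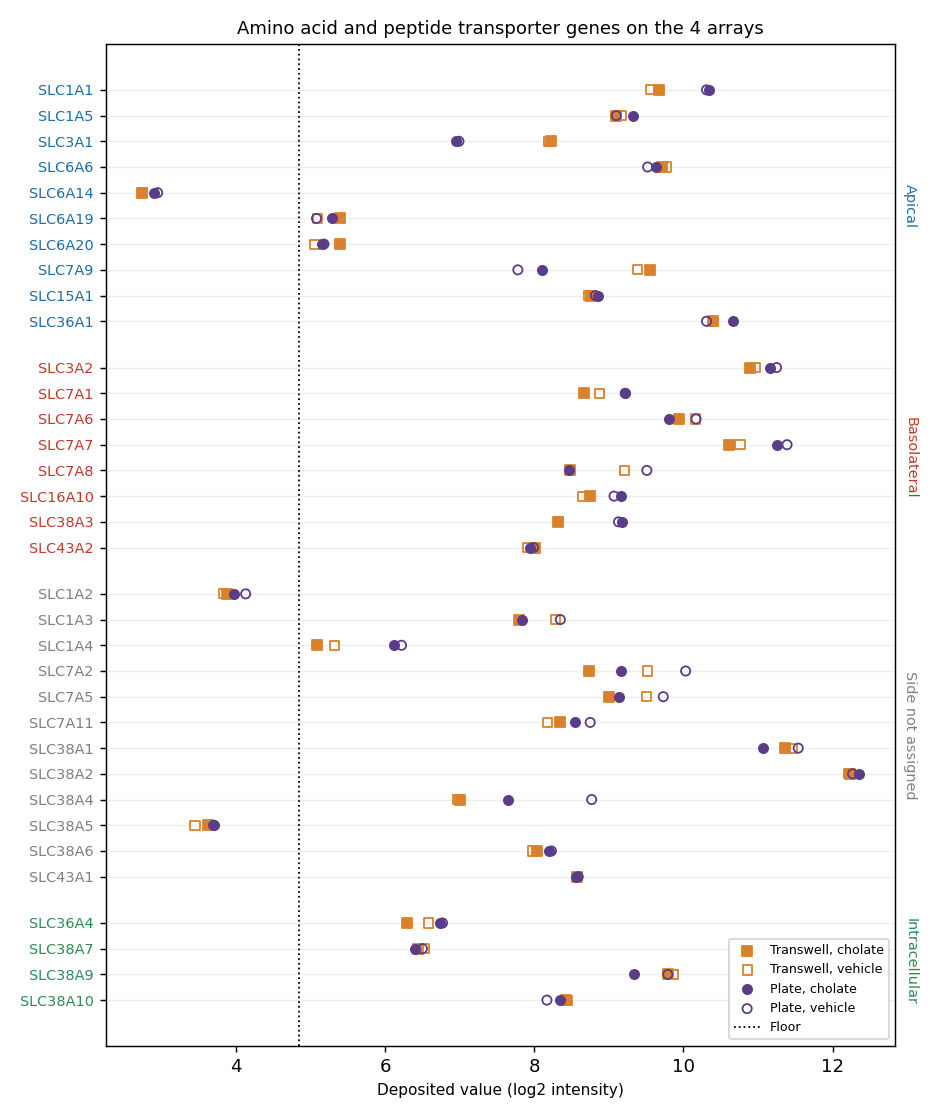
Deposited values (log2 intensity, horizontal axis) of the 34 transporter genes, 1 row per gene, grouped and coloured by location. Squares are Transwell and circles plate, filled for cholate and open for vehicle, and the dotted line is the floor at 4.84. SLC3A1 and SLC7A9 show squares to the right of circles, SLC38A4 shows the plate vehicle pool alone on the right, and values should be compared only within a row.

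The letters before the start of 3 genes with a single listed window each are printed. SLC7A9 was the member highest on Transwell relative to plate, SLC38A4 the member lowest on Transwell in vehicle, and SLC7A5 the member just past 1.5-fold lower in cholate on the plate. SLC7A8, with a larger cholate difference, has 4 windows and is not printed. Each run holds the 250 bases before the annotated start, 5′ to 3′ on the gene's strand, from RefSeq (GRCh38.p14). Capitals mark TTTAT or its reverse complement, the short core that CDX homeodomain factors bind.
SLC7A9, chr19:32869768-32870017, minus strand: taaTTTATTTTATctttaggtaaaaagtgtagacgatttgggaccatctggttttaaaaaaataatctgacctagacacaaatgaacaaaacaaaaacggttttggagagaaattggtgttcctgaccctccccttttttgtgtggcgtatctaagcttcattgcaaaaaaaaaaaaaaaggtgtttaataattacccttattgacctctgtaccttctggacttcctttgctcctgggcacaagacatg
SLC38A4, chr12:46825998-46826247, minus strand: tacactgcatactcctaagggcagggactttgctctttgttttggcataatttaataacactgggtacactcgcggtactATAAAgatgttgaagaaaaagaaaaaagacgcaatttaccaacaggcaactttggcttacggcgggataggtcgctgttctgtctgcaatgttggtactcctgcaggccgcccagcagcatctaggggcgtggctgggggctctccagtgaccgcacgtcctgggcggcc
SLC7A5, chr16:87869508-87869757, minus strand: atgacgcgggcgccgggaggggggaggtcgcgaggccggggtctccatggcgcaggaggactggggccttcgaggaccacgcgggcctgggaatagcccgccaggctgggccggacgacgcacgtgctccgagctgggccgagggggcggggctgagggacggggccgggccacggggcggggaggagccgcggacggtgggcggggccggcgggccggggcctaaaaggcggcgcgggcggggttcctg

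The SLC7A9 window holds 35.6% G and C and has TTTAT at 247 and 242 bases before the start, the SLC38A4 window holds 51.6% with 1 match at 170 bases on the other strand, and the SLC7A5 window holds 79.6% with none. TTTAT is common, being present in 32.7% of 35116 such windows. None of the 3 windows holds TGATGNAA, the CEBP-ATF core of amino acid response elements (3.14% of all windows), TGACTCA, the AP-1 site (4.20%), or GTTAAT, a core of the HNF1 site (6.23%). Both strands were searched for every motif. Windows were listed for 28 members. In at least 1 window, 12 of these held TTTAT, against 37.6% of 27305 genes, and 2 held TGATGNAA (SLC1A3 and SLC1A5), against 3.89%. TGACTCA was held by 8, against 5.19%: SLC1A3, SLC3A2, SLC6A14, SLC15A1, SLC36A4, SLC38A1, SLC38A9 and SLC43A2. GTTAAT was held by 3 (SLC1A3, SLC6A19 and SLC6A20), against 7.50%. A gene with more windows has more places for a match. Of the members' 49 windows, 14 held TTTAT, 2 TGATGNAA, 8 TGACTCA and 3 GTTAAT, to be set against the shares of all windows above. A match is a run of letters and not a measured binding site.

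The first comparison set Transwell against plate, in each treatment, and asks how the Transwell culture differs from the plate culture in its amino acid carriers. The subunits of the apical cystine and cationic amino acid carrier, SLC3A1 and SLC7A9, were higher on Transwell in both treatments. SLC1A1, SLC7A7, SLC38A3, SLC1A4 and SLC38A4 were lower on Transwell in both treatments. In cholate 2 of 31 genes were at least 1.5-fold higher, where 4.02% of all 12900 genes above the floor were, and 5 were lower, where 3.75% of all genes were. In vehicle the counts were again 2 higher and 5 lower, against 1.93% and 3.16% of all genes. The 2 higher and 5 lower genes were the same in both treatments, which 1.19% and 1.84% of all genes did.

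SLC7A9, the light chain b0,+AT, read 9.55 in cholate and 9.38 in vehicle on Transwell, against 8.10 in cholate and 7.78 in vehicle on the plate. Both Transwell pools lay above both plate pools, by 1.45 log2 in cholate (2.73-fold) and 1.60 in vehicle (3.04-fold). This placed SLC7A9 at rank 22 and rank 11 from the top of the 12900 genes.

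SLC3A1, the heavy chain rBAT without which b0,+AT does not reach the brush border, read 8.23 in cholate and 8.19 in vehicle on Transwell, against 6.95 in cholate and 6.99 in vehicle on the plate. The difference was 1.28 log2 in cholate (2.43-fold) and 1.20 in vehicle (2.29-fold). Both Transwell pools lay above both plate pools, and cholate and vehicle pools differed by at most 0.04 on either support. The pools of a support differ in treatment and are not replicates. How many of all genes kept such an order was not counted, for SLC7A9 and SLC3A1 or for genes below. At any size, 39.5% of all genes were higher on Transwell in both treatments. Whether more of the cells carried SLC3A1 RNA or each cell held more of it cannot be told apart in pooled RNA, here and below. Of 9 enterocyte markers, 1 (KRT20, 0.83 log2) was at least 1.5-fold higher on Transwell in cholate, against 4.02% of all genes. In vehicle 2 were, against 1.93%: CDX2, at 9.68 on Transwell against 8.68 on the plate, and ANPEP, higher by 0.79. In both treatments 0 were lower, against 3.75% in cholate and 3.16% in vehicle. The median of the 9 was 0.05 in cholate and 0.08 in vehicle. Of the leukocyte list, CD68 differed by -0.64 log2 in cholate and -0.33 in vehicle, and CD14 by 0.40 and 0.12. No fibroblast marker above the floor reached 1.5-fold between the supports. As the RNA came from the Caco-2 line, these values are not read as shares of other cell types. How the marker values relate to the differences described here was not tested.

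The other apical carriers gave different values. SLC1A1, the glutamate and aspartate carrier EAAT3, lay lower on Transwell and read 9.67 in cholate and 9.56 in vehicle on Transwell, against 10.35 in cholate and 10.31 in vehicle on the plate, a difference of -0.69 and -0.75 log2. SLC15A1, the proton-coupled peptide carrier PEPT1, read 8.76 and 8.73 in cholate and vehicle on Transwell, against 8.85 and 8.82 in cholate and vehicle on the plate, which is -0.09 log2 in each treatment. SLC6A19, the main apical carrier of neutral amino acids (B0AT1), read 5.40 and 5.09 in cholate and vehicle on Transwell, against 5.29 and 5.08 in cholate and vehicle on the plate, close to the floor on every array. The remaining apical genes above the floor lay between -0.27 and 0.26 log2. They were the glutamine carrier SLC1A5, the taurine carrier SLC6A6, the proline carrier SLC6A20 and the proton-coupled carrier SLC36A1. Over the 9 apical genes above the floor the median difference was 0.08 log2 in cholate and 0.07 in vehicle, against 0.02 over all genes above the floor in either treatment. With SLC6A14 included it was -0.00 and 0.04.

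Basolateral genes lay lower on Transwell in 5 of 8 cases in both treatments and higher in 0, where 33.2% and 39.5% of all genes did. Their median was -0.34 log2 in cholate and -0.32 in vehicle. SLC7A7, the light chain y+LAT1 that exports cationic amino acids and is mutated in lysinuric protein intolerance, read 10.61 in cholate and 10.76 in vehicle on Transwell, against 11.26 in cholate and 11.39 in vehicle on the plate. The difference was -0.65 log2 in cholate and -0.63 in vehicle. SLC38A3, a glutamine carrier known from the basolateral side of kidney tubules, read 8.32 in both treatments on Transwell, against 9.18 in cholate and 9.13 in vehicle on the plate, a difference of -0.85 and -0.81. In both genes the plate pools lay above the Transwell pools without overlap.

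The same order without reaching 1.5-fold was seen for SLC7A1, the cationic amino acid carrier CAT1 (-0.55 in cholate and -0.35 in vehicle), SLC16A10, the aromatic amino acid uniporter TAT1 (-0.42 in each) and the heavy chain SLC3A2. SLC3A2 read 10.89 in cholate and 10.96 in vehicle on Transwell, against 11.16 in cholate and 11.25 in vehicle on the plate. The heavy chains SLC3A2 and SLC3A1 thus differed in opposite directions between the supports, by -0.27 and 1.28 log2 in cholate and -0.29 and 1.20 in vehicle. SLC7A6 (0.13 in cholate and -0.01 in vehicle), SLC7A8 (0.01 and -0.30) and the uniporter SLC43A2 (0.07 and -0.08) did not keep 1 direction.

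Among genes with no assigned side, SLC1A4, the carrier of alanine, serine and cysteine, read 5.09 in cholate and 5.32 in vehicle on Transwell, against 6.12 in cholate and 6.22 in vehicle on the plate. The difference was -1.03 log2 in cholate (2.04-fold) and -0.90 in vehicle (1.86-fold), with Transwell values close to the floor. SLC38A4, a neutral amino acid carrier best known from liver, read 7.01 in cholate and 6.97 in vehicle on Transwell, against 7.65 in cholate and 8.77 in vehicle on the plate. Its difference was -0.64 log2 in cholate and -1.79 in vehicle (3.46-fold), rank 6 from the bottom of the 12900 genes in vehicle. Just under 1.5-fold, the cystine and glutamate exchanger SLC7A11 read 8.34 in cholate and 8.18 in vehicle on Transwell, against 8.54 in cholate and 8.75 in vehicle on the plate, -0.20 and -0.57 log2. SLC7A2, a cationic amino acid carrier, stood at -0.43 and -0.51. The 4 intracellular genes, SLC36A4, SLC38A7, SLC38A9 and SLC38A10, ran from -0.44 to 0.45 in cholate and from -0.19 to 0.27 in vehicle.

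**Figure D2:**
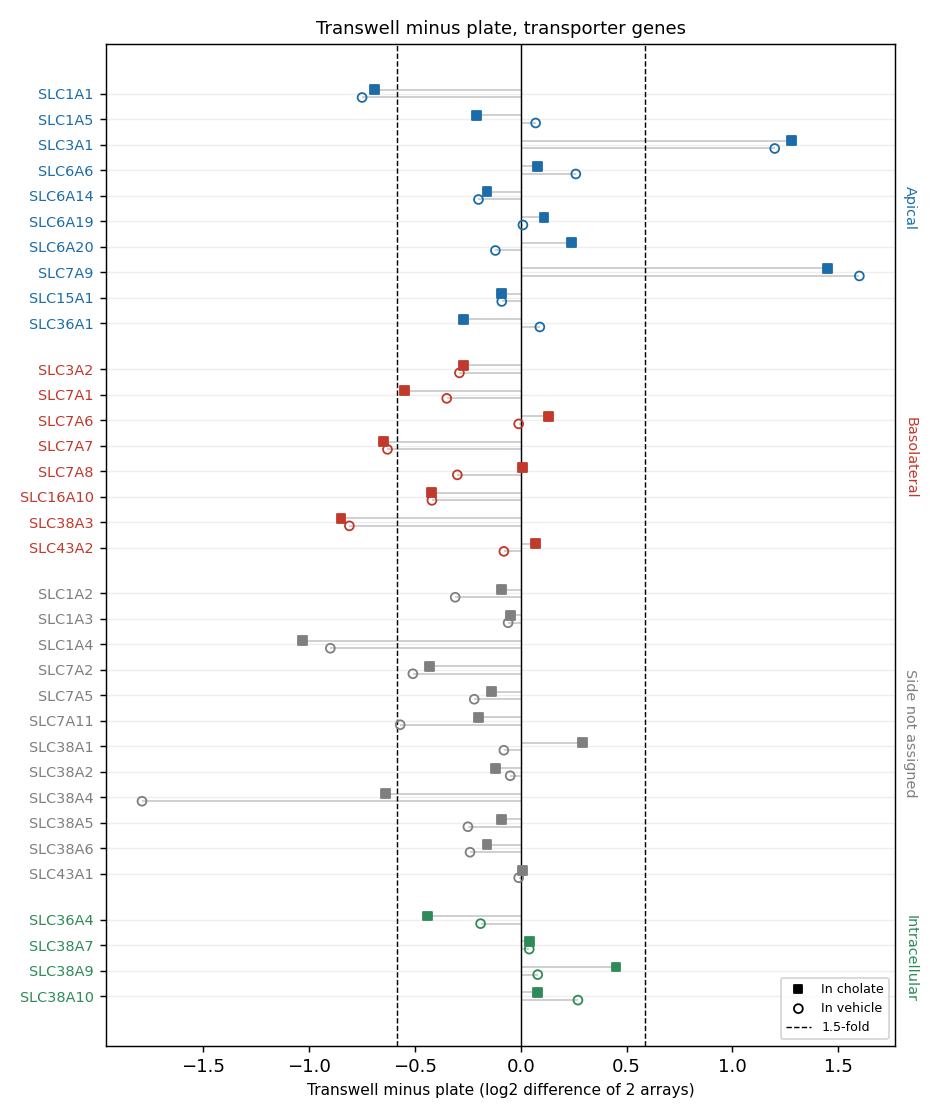
Transwell minus plate (log2 difference of 2 arrays, horizontal axis) for each transporter gene, with filled squares for cholate and open circles for vehicle and dashed lines at 1.5-fold. SLC7A9 and SLC3A1 lie right of the upper line in both treatments, SLC1A1, SLC7A7, SLC38A3, SLC1A4 and SLC38A4 left of the lower line, and SLC38A4 shows the widest gap between its marks (-0.64 and -1.79).

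An additive limma model of support and treatment across all 4 arrays gave SLC7A9 a mean difference of 1.53 log2 (SE 0.09, adjusted p = 0.0858), SLC3A1 1.24 (SE 0.09, adjusted p = 0.0858), SLC1A4 -0.96 (SE 0.09, adjusted p = 0.0886) and SLC38A3 -0.83 (SE 0.09, adjusted p = 0.0962). SLC1A1 stood at -0.72 (SE 0.09, adjusted p = 0.101), SLC7A7 at -0.64 (SE 0.09, adjusted p = 0.110) and SLC38A4 at -1.22 (SE 0.31, adjusted p = 0.160). No member and none of the 19978 probe sets fitted passed an adjusted p of 0.05 (0%). At an unadjusted p under 0.05 the members numbered 2 higher and 11 lower of 31, against 13.2% and 10.9% of all 12900 genes. The result turned on which probe sets entered and on the prior. With a floor at the 50th percentile 3 members passed, where 0.721% of all probe sets did, and with an intensity trend in the prior 5 passed, where 1.47% did. When only the 13613 probe sets with a single listed gene were fitted, 11.1% of them passed, and so did 10 members: SLC3A1 and SLC7A9 higher, and SLC1A1, SLC1A4, SLC7A1, SLC7A2, SLC7A7, SLC16A10, SLC38A3 and SLC38A4 lower. The standard errors combine 1 residual degree of freedom with a prior of 2.83 degrees of freedom and SD 0.1. The residual is the gap between the gene's support differences in cholate and in vehicle. The prior is estimated from all probe sets fitted and carries more of the weight. Neither is a spread between cultures.

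The second comparison set cholate against vehicle on each support and asks which carriers answered 3 h of bile acid. SLC7A8 and SLC7A2 were lower in cholate by at least 1.5-fold on both supports, SLC7A5 and SLC1A3 stood close to that size on both, and SLC38A4 was lower on the plate alone. No member was 1.5-fold higher on either support. On Transwell 2 of 31 genes were lower, where 0.736% of all genes were, and 0 higher, where 0.357% were. On the plate 4 were lower, against 2.35% of all genes, and 0 higher, against 1.49%. SLC7A5, the smallest of these 4, was short of 1.5-fold under 2 other scalings. Both SLC7A8 and SLC7A2 passed on both supports, which 0.504% of all genes did.

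SLC7A8, the basolateral light chain LAT2 that exchanges neutral amino acids, read 8.48 in cholate against 9.21 in vehicle on Transwell, and 8.46 in cholate against 9.51 in vehicle on the plate. Both cholate pools lay below both vehicle pools, with a difference of -0.74 log2 on Transwell (1.67-fold) and -1.04 on the plate (2.06-fold). It ranked 51 and 57 from the bottom of the 12900 genes.

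SLC7A2, which carries arginine and lysine and is known as CAT2, read 8.74 in cholate against 9.52 in vehicle on Transwell, and 9.17 in cholate against 10.03 in vehicle on the plate. The difference was -0.78 log2 on Transwell (1.72-fold) and -0.86 on the plate (1.81-fold), rank 34 and rank 94 from the bottom.

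SLC7A5, the light chain LAT1 that imports leucine and other large neutral amino acids, read 9.00 in cholate against 9.51 in vehicle on Transwell, and 9.14 in cholate against 9.73 in vehicle on the plate. At -0.59 log2 it lay just past the 1.5-fold line on the plate, and at -0.51 it lay just short of it on Transwell. The plate value was -0.57 after quantile normalization and -0.56 after cyclic loess, both short of the line, and -0.66 with arrays centred on their medians. SLC1A3, the glutamate carrier EAAT1, read 7.79 in cholate against 8.29 in vehicle on Transwell, and 7.83 in cholate against 8.35 in vehicle on the plate, -0.51 and -0.52 log2, and it passed 1.5-fold on the plate with arrays centred on their medians. For both genes the cholate pools lay below the vehicle pools without overlap. At any size, 34.7% of all genes were lower in cholate on both supports. SLC7A5 has pseudogene copies in the genome whose RNA its probe set may also bind, and this was not tested.

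The light chains that pair with SLC3A2 differed among themselves. SLC7A8 and SLC7A5 are described above, the exporter SLC7A6 (y+LAT2) stood at -0.22 log2 on Transwell and -0.36 on the plate, SLC7A7 at -0.15 and -0.13, and SLC7A11 at 0.16 and -0.21. The heavy chain SLC3A2 itself read 10.89 in cholate against 10.96 in vehicle on Transwell, and 11.16 in cholate against 11.25 in vehicle on the plate, -0.08 and -0.09 log2. Over all 8 basolateral genes the median was -0.12 log2 on Transwell and -0.07 on the plate, with 4 genes lower and 2 higher on both supports, where 34.7% and 26.1% of all genes were.

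Apical genes stayed within 0.36 log2 of vehicle on either support. SLC6A19 was 0.31 higher in cholate on Transwell and 0.21 higher on the plate, near the floor, and SLC7A9 0.18 and 0.33 higher. SLC6A20, also near the floor, had the highest apical difference on Transwell, at 0.33, but stood at -0.02 on the plate. SLC36A1 read 10.40 in cholate and 10.40 in vehicle on Transwell, and 10.67 in cholate against 10.31 in vehicle on the plate. SLC15A1 differed by 0.04 and 0.03. Over the 9 apical genes above the floor the median was 0.04 log2 on Transwell and 0.11 on the plate, against -0.01 and -0.03 over all genes above the floor. Of these 9, 5 were higher and 0 lower on both supports at any size, where 26.1% and 34.7% of all genes were. The 5 included SLC15A1 and also SLC36A1, whose difference on Transwell rounds to 0.0 log2.

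**Figure D3:**
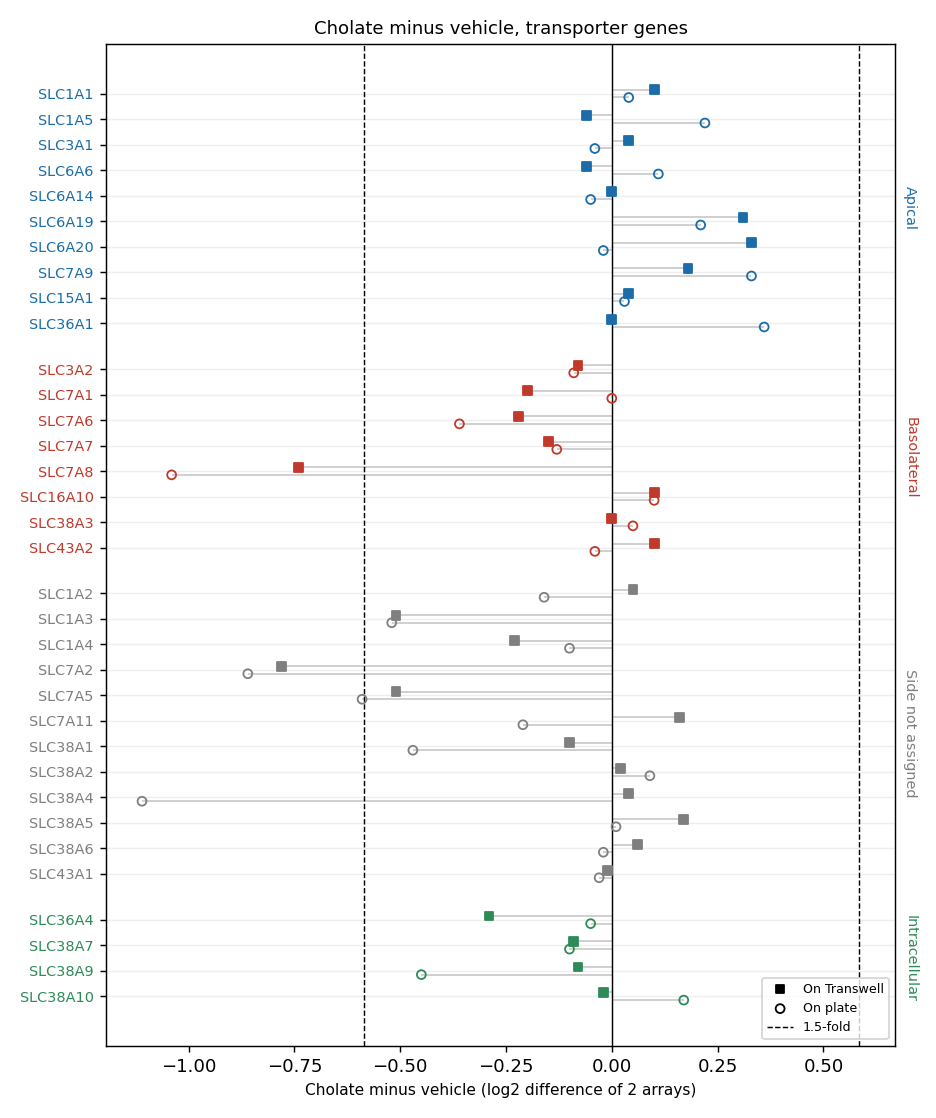
Cholate minus vehicle (log2 difference of 2 arrays, horizontal axis) for each transporter gene, with filled squares for Transwell and open circles for plate and dashed lines at 1.5-fold. SLC7A8 and SLC7A2 lie left of the lower line on both supports, SLC38A4 and SLC7A5 on the plate alone, and no apical gene reaches either line.

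In the limma model the mean cholate difference was -0.89 log2 for SLC7A8 (SE 0.12, adjusted p = 0.321), -0.82 for SLC7A2 (SE 0.09, adjusted p = 0.312), -0.55 for SLC7A5 (SE 0.09, adjusted p = 0.325) and -0.51 for SLC1A3 (SE 0.09, adjusted p = 0.326). No member and none of the 19978 probe sets (0%) passed an adjusted p of 0.05 in this limma fit or in any of its alternatives. At an unadjusted p under 0.05 there were 1 member higher, SLC6A19, and 5 lower, against 2.98% and 5.02% of all 12900 genes. The 5 were SLC7A8, SLC7A2, SLC7A5, SLC1A3 and SLC7A6.

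SLC38A4 gave the widest gap between the cholate responses on the supports among the members. Its plate vehicle pool at 8.77 stood apart from 7.65 in cholate on the plate, 7.01 in cholate on Transwell and 6.97 in vehicle on Transwell. The cholate response was 0.04 log2 on Transwell and -1.11 on the plate, 1.15 apart. It was the single member with responses at least 1.5-fold apart, where 1.59% of all genes had the higher response on Transwell by that much and 1.46% on the plate. The other 30 genes above the floor lay between -0.36 and 0.37. The plate vehicle array enters both the cholate response on the plate and the support difference in vehicle, so a response to cholate on the plate and a high plate vehicle pool cannot be told apart for SLC38A4.

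**Figure D4:**
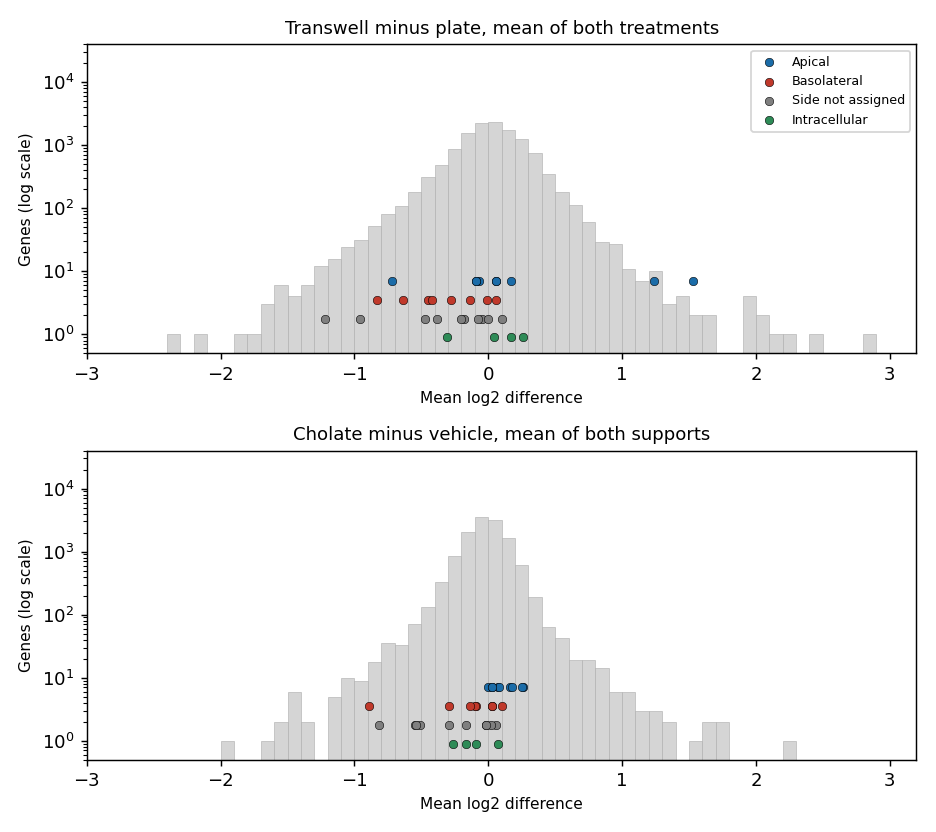
Distribution of all 12900 genes above the floor (bars, number of genes on a log scale) by their mean log2 difference between Transwell and plate (top) and between cholate and vehicle (bottom), with the 31 transporter genes as dots coloured by location, their height having no meaning. In the top panel SLC3A1 (1.24) and SLC7A9 (1.53) stand in the sparse right tail, and in the bottom panel SLC7A8 (-0.89) and SLC7A2 (-0.82) stand in the left tail.

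The 21 genes without a 1.5-fold difference ran from -0.51 to 0.33 log2 for cholate on Transwell and from -0.52 to 0.36 on the plate. For Transwell against plate they ran from -0.55 to 0.45 in cholate and from -0.57 to 0.27 in vehicle. Of the 31, 8 stayed within 1.2-fold in all 4 differences, where 46.4% of all genes did: SLC1A5, SLC6A6, SLC15A1, SLC38A2, SLC38A6, SLC38A7, SLC43A1 and SLC43A2. SLC38A2, the sodium-coupled carrier SNAT2 whose RNA cells raise when amino acids run short, read 12.24 in cholate and 12.22 in vehicle on Transwell, against 12.36 in cholate and 12.27 in vehicle on the plate. The glutamine carrier SLC38A1 stood at -0.10 in cholate on Transwell and -0.47 on the plate, and SLC38A9, the lysosomal arginine sensor of the mTORC1 pathway, at -0.08 and -0.45.

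Other genes of amino acid handling were read from lists. Of 32 further carriers, 31 had a probe set of their own and 18 lay above the floor. SLC15A2, the peptide carrier PEPT2, was the only gene of that list lower in cholate by 1.5-fold on both supports, where 0.504% of all genes were. It read 6.39 in cholate against 7.11 in vehicle on Transwell, and 6.86 in cholate against 8.09 in vehicle on the plate, -0.73 and -1.23 log2, where the apical peptide carrier SLC15A1 stood at 0.04 and 0.03. SLC7A4 also passed on the plate, at -0.92 log2, against -0.19 on Transwell. Between the supports, 2 of the 18 were at least 1.5-fold higher on Transwell in cholate, against 4.02% of all genes, and 0 lower, against 3.75%. They were the mitochondrial aspartate and glutamate carrier SLC25A12 (0.79 in cholate and 0.34 in vehicle) and the betaine carrier SLC6A12 (0.78 and 0.40). In vehicle 1 was higher, against 1.93% of all genes, and 1 lower, against 3.16%. The higher gene was the creatine carrier SLC6A8 (0.10 in cholate and 0.65 in vehicle), which is named after its values were seen. The lower gene was SLC15A2 (-0.47 in cholate and -0.98 in vehicle). The mitochondrial ornithine carrier SLC25A15 stood at 0.57 in cholate and 0.55 in vehicle. Of 7 measured accessory genes, 6 reached 1.5-fold in none of the 4 differences. The exception was CLTRN, encoding collectrin, which brings B0AT1 to the surface in kidney. In cholate CLTRN differed by -0.60 log2 on Transwell, where 0.736% of all genes were 1.5-fold lower, and by -0.50 on the plate. It was also lower on Transwell than on the plate, at -0.82 in cholate and -0.71 in vehicle. Of all genes, 1.84% were 1.5-fold lower in both treatments. CLTRN read 5.00 in cholate and 5.61 in vehicle on Transwell, against 5.82 and 6.32 on the plate, so the Transwell cholate value was close to the floor. Of 20 nutrient sensing genes of the mTORC1 pathway, 0 passed 1.5-fold for cholate on either support, and the all-gene shares of 0.357% to 2.35% give less than 1 gene in a list of that size. Between the supports 2 were lower on Transwell in cholate, against 3.75% of all genes, and 1 in vehicle, against 3.16%. In both treatments 0 were higher, against 4.02% in cholate and 1.93% in vehicle. The lower genes were the leucine sensor SESN2 (-0.94 log2 in cholate and -0.43 in vehicle) and its relative SESN3 (-0.61 in cholate and -0.91 in vehicle). SESN2 is also in the amino acid response list below and is counted in both lists.

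The amino acid response, in which the transcription factor ATF4 raises biosynthetic enzymes and carriers, was represented by 28 genes, all above the floor. In cholate 2 were at least 1.5-fold higher on Transwell, against 0.357% of all genes, and 7 on the plate, against 1.49%, with 0 lower on either. DDIT3 (0.62 on Transwell and 0.64 on the plate) and CHAC1 (0.59 and 1.16) passed on both supports. ATF3, TRIB3, DDIT4, CEBPB and PPP1R15A passed on the plate alone. The biosynthetic enzymes PSAT1, PHGDH, PSPH, SHMT2, MTHFD2, ALDH18A1, PYCR1 and CTH, grouped after their values were seen, stayed under 1.5-fold. They ran from -0.11 to 0.28 log2 on Transwell and from -0.46 to 0.27 on the plate. At any size, 12 of the 28 were higher and 9 lower on both supports, where 26.1% and 34.7% of all genes were. On Transwell, relative to the plate, 8 were lower in cholate, against 3.75% of all genes, and 6 in vehicle, against 3.16%, with 0 higher. SLC3A2, SLC7A1, SLC7A5, SLC7A11 and SLC38A2 are carriers known as ATF4 targets, grouped here after their values were seen. These 5 ran from -0.51 to 0.16 log2 in cholate on Transwell and from -0.59 to 0.09 on the plate, so none was higher by 1.5-fold. ATF4 RNA differed by -0.02 and 0.13, and the asparagine synthetase gene ASNS, another target, by 0.10 and -0.19.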

How the data were processed

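The authors deposited a log2 intensity for each probe set on each array, and the submitters' processing notes name RMA, whose software and version are not given here. Because RMA equalises the arrays and shrinks low values, shifts common to most RNAs are hidden and differences near background are understated. Of 33297 probe sets, 19460 had 1 gene symbol in the platform annotation, and 1754 with several and 12083 with none were not named. The floor was the 40th percentile of the mean over 4 arrays (4.84), which left 19978 probe sets and 12900 genes. Differences between 2 arrays have no p-value and were counted past 1.5-fold. limma 3.58.1 in R 4.3.3 (lmFit, eBayes, 2-sided, Benjamini-Hochberg over all probe sets above the floor) fitted support and treatment additively. Its prior had 2.83 degrees of freedom. The fit was also run on data simulated with additive changes and noise from that prior. Such data cannot show how it performs on pools without replicates. The number of arrays limits the precision. Per-array values were given by rule for genes past 1.5-fold, the heavy chains and a few main carriers, and up to 4 genes per further list. Members and lists were chosen with earlier results of these data known. Alternatives were other scalings, floors, fold thresholds, priors and probe set choices.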

Additional observations from a re-analysis of the deposited data

How the results depend on the processing

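Centring each array on its median, quantile normalization, cyclic loess and averaging the probe sets of a gene left every count of members past 1.5-fold within 1.5 times, and so did both other floors. The members counted changed at the line: SLC7A5 was no longer 1.5-fold lower in cholate on the plate after quantile normalization (-0.57) or cyclic loess (-0.56), which left 3 members, and SLC1A3 joined with median centring, which gave 5. SLC7A11 joined the genes lower on Transwell in vehicle under quantile normalization and cyclic loess, and SLC7A1 those in cholate under cyclic loess. Under those 4 settings all 160 values of single members and all 48 medians moved by less than 0.13 log2, the spread of a difference in the limma fit, as did the 12 medians over genes above the floor. No called difference changed sign, and no scaling moved the median of all genes by over 0.07. A fold threshold of 2 left 2 members lower in cholate on the plate (SLC7A8 and SLC38A4) and 0 lower on Transwell. Between the supports it left 1 member lower on Transwell in vehicle (SLC38A4) and 1 in cholate (SLC1A4). The 2 members higher on Transwell, SLC3A1 and SLC7A9, stayed past it in both treatments. The share of all genes past 2-fold was not counted. The count of members passing limma for support, 0 in the reported fit, was 3 with a floor at the 50th percentile (SLC1A4, SLC3A1 and SLC7A9, where 0.721% of all probe sets passed), 5 with an intensity trend (SLC1A1, SLC3A1, SLC7A7, SLC7A9 and SLC38A3, where 1.47% passed) and 10 with only listed genes in the fit (11.1%). The adjusted p ranged from 0.00283 to 0.171 for SLC7A9 and from 0.00355 to 0.171 for SLC3A1 over the limma fits. For cholate the count was 0 in all 10 fits, with adjusted p from 0.0686 to 0.453 for SLC7A8. The additive limma fit already sets cholate against vehicle within each support. No paired analysis was possible beyond it because each condition had 1 array and the labels number no replicates.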
